A study of Mus musculus with 8 samples.

Results

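The 10 genes described here are the transcription factor gene Srf, the coactivator genes Mkl1 and Mkl2 (older symbols of the myocardin-related transcription factors Mrtfa and Mrtfb), and 7 genes of actin-binding proteins: the transgelins Tagln and Tagln2, the calponins Cnn1, Cnn2 and Cnn3, vinculin (Vcl) and smoothelin (Smtn). They were taken by symbol from a table of 35976 genes. They were chosen by their role, with their differences between the knockdown and control libraries in view. Those measured log2 differences therefore count as used in the selection and are given as a description, without a test. All 10 had a mean above 3 on the log2 scale, the minimum for testing.

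The RNA came from C2C12, an established line of mouse skeletal muscle myoblasts. Cells of 4 libraries were transfected with an shRNA targeting Atad2, the gene of a bromodomain ATPase of chromatin, and cells of the other 4 with a non-targeting shRNA, called control shRNA here. All were lysed after 48 h. The labels state neither how many shRNA sequences were used nor whether replicates are separate cultures. Errors and p-values thus cover the spread among these libraries, which may be technical.

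The recovered depth was 50.3 to 72.3 Mreads (1 Mread is 1000000 reads) per library with Atad2 shRNA and 61.4 to 73.0 Mreads with control shRNA (exact two-sided permutation p = 0.457, n = 4 each). Atad2 itself lay at 11.87, 11.77, 12.05 and 12.05 in the Atad2 shRNA libraries and at 14.66, 14.74, 14.67 and 14.61 in the control libraries (limma adjusted p = 4.6e-20). The 6 myoblast markers summed to 748 to 825 RPM with Atad2 shRNA and 726 to 768 RPM with control shRNA (RPM, reads per Mread). Within the list 3 rose and 3 fell: Myog was 4.45-fold, Des 1.30-fold and Myod1 1.19-fold higher, while Myf5 was 2.42-fold, Cdh15 1.94-fold and Chrna1 1.19-fold lower with Atad2 shRNA. Myog was weak, with 73 to 158 reads per Atad2 shRNA library and 23 to 39 per control library. The smooth muscle markers are described further below. In each of the other lists 1 gene had no read in any library: Kcnj8 (pericyte), Lum (fibroblast), Emcn (endothelial) and Adgre1 (macrophage). Of the 3 pericyte markers tested, Cspg4 was 1.37-fold higher (limma adjusted p = 2.2e-08). Pdgfrb was 1.29-fold and Notch3 2.21-fold lower (limma adjusted p = 5.7e-08 and 2.5e-10). The whole lists summed to 458 to 480 RPM with Atad2 shRNA and 532 to 556 RPM with control shRNA for pericytes, and to 871 to 1185 RPM with Atad2 shRNA and 1046 to 1179 RPM with control shRNA for fibroblasts. Of the fibroblast markers, 4 were tested: Pdgfra was 2.48-fold, Dcn 1.67-fold and Col1a1 1.59-fold higher (limma adjusted p = 1.3e-16, 0.016 and 0.0013), and Col3a1, the most abundant, was 1.12-fold lower (limma adjusted p = 0.040). The endothelial list stayed below 1 RPM, and the macrophage list lay at 8.30 to 10.5 RPM with Atad2 shRNA and 3.91 to 4.88 RPM with control shRNA. Of the 2 macrophage markers tested, Cd68 was 2.25-fold higher (limma adjusted p = 1.4e-08) and Csf1r did not pass (limma adjusted p = 0.11). The macrophage sum is mostly Cd68, with 424 to 552 reads per Atad2 shRNA library and 215 to 313 per control library. Ptprc had at most 4 reads and Itgam at most 1 in any library. The part of these markers in the results below was not tested. On principal component 2, Atad2 shRNA replicate 3 stood apart from the other 7 libraries. Levels are given as log2(normalized count + 1) and differences as log2 fold changes of Atad2 shRNA over control shRNA ± SE.

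SRF binds a short A/T-rich element, the CArG box, in the promoters of many cytoskeletal and immediate early genes. MRTFs are held in the cytoplasm by monomeric actin. When actin assembles into filaments, they enter the nucleus and join SRF at cytoskeletal genes, while ternary complex factors such as ELK1 join it at immediate early genes. In muscle lineages SRF supports the genes of contractile and adhesion proteins, and Tagln and Cnn1 serve as markers of contractile smooth muscle.

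Srf and most of the actin-binding genes differed in opposite directions. Srf was 1.31-fold higher in the Atad2 shRNA libraries and both MRTF genes overlapped between groups, while Tagln was 6.41-fold, Cnn1 7.04-fold and Cnn2 2.13-fold lower. Cnn3, Vcl and Smtn were lower by smaller amounts, and Tagln2 was slightly higher. Values of the groups did not overlap for 8 of the 10 genes, against 53.5% of the 14703 genes tested. The Atad2 shRNA libraries lay above in 2 (background 27.7%) and below in 6 (background 25.8%). The median log2 fold change of the 10 genes was -0.40, beside -0.01 over all genes tested. Nothing is read from these counts, since the same contrast was used to propose the genes. In bulk RNA, fewer cells expressing a gene and less of its RNA per cell cannot be told apart.

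**Figure D1:**
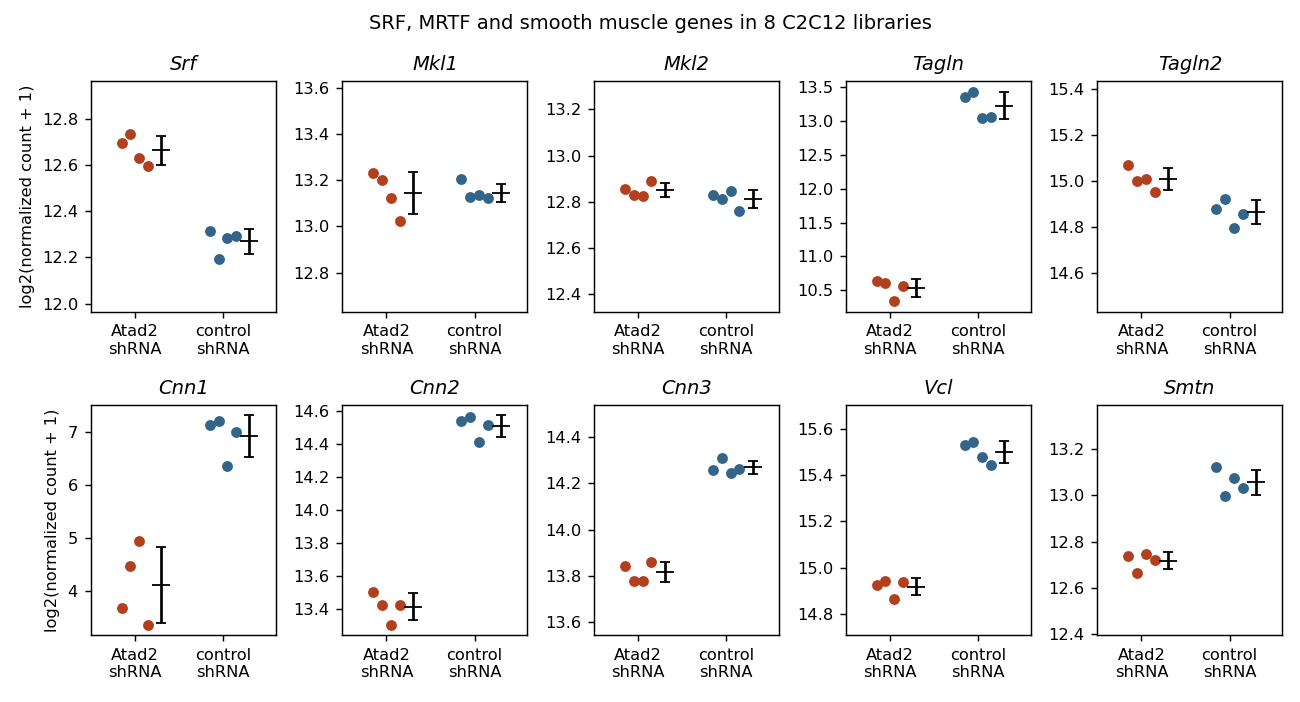
Level of each of the 10 genes in every library, as log2(normalized count + 1) on a separate axis per gene. Points are the 4 replicates of Atad2 shRNA (left) and of control shRNA (right) in replicate order, and black marks are means with SD; the groups are apart for 8 genes and overlap for Mkl1 and Mkl2.

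Srf (chromosome 17, 46546838 to 46558267, minus strand, GRCm38) encodes the DNA-binding factor that the other regulators act through. It stood at 12.70, 12.74, 12.63 and 12.60 in the Atad2 shRNA libraries, and at 12.31, 12.19, 12.28 and 12.29 in the control libraries. Every Atad2 shRNA library lay above every control library. The log2 fold change was 0.40 ± 0.04, and 11.5% of all genes tested had one at least as high. Over 17 alternative settings it ranged from 0.29 to 0.42.

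Of the 10 genes, all but Tagln have RefSeq promoter windows in the table used, 12 in all, each reaching from 250 bases before an annotated start to 50 after it. A CArG box with every letter matching was found in the windows of 3 genes: Srf, Cnn2 and Vcl. It was present in 1.63% of all 32851 windows, counted over both strands, and no other motif was searched. The 250 bases before the start of these 3 genes are shown since they hold matches to the element that SRF binds. They are given 5′ to 3′ on the gene's strand with the boxes in capitals (RefSeq, GRCm38). The Srf stretch is chr17:46556163-46556412 (minus strand), the Cnn2 stretch chr10:79988350-79988599 (plus strand) and the Vcl stretch chr14:20929148-20929397 (plus strand).
Srf: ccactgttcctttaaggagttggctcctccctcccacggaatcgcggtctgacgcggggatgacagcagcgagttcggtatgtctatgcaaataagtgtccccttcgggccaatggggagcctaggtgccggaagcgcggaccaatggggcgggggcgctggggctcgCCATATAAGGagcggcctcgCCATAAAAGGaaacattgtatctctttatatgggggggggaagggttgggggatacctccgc
Cnn2: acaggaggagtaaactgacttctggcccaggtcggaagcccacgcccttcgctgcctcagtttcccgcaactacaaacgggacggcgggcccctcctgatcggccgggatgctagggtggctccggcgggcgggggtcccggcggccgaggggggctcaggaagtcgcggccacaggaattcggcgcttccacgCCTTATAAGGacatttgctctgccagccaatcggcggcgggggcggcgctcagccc
Vcl: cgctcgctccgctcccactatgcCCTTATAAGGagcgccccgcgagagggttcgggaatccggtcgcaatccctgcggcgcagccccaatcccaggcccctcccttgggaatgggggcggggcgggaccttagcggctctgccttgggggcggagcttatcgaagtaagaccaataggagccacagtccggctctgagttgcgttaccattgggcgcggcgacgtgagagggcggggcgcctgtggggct

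The Srf promoter held 2 boxes, CCATATAAGG and CCATAAAAGG, which began 82 and 62 bases before the annotated start used. That start lies inside the span given above for Srf, which reaches further upstream. The distances hold for this start only. Cnn2 and Vcl carried the same box, CCTTATAAGG, at 56 bases before the start in Cnn2 and 227 bases before it in Vcl. The 3 genes with a box did not share a direction: Srf was higher and Cnn2 and Vcl were lower in the Atad2 shRNA libraries. With 1 letter allowed to differ, Mkl1 joined them and Srf held 3 boxes, but 21.1% of all windows then had a match.

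**Figure D2:**
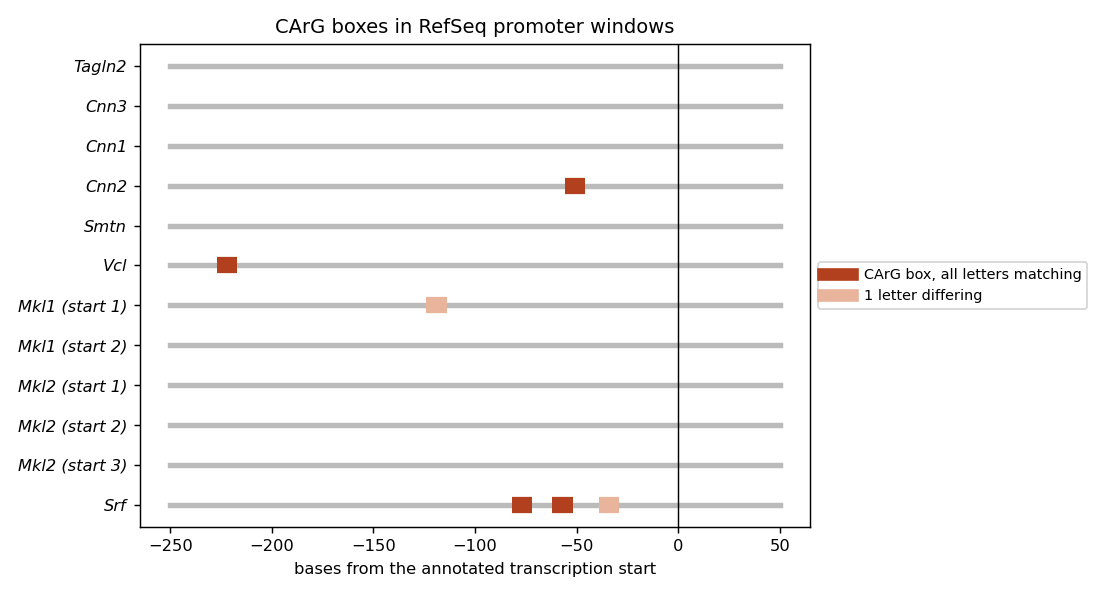
Position of CArG boxes in the 12 RefSeq promoter windows of 9 of the 10 genes, in bases from the annotated start (vertical line); genes with several annotated starts have a row for each. Boxes with every letter matching lie at Cnn2 (1), Vcl (1) and Srf (2), and boxes with 1 differing letter at Mkl1 and Srf.

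Mkl1 (chromosome 15, 81012281 to 81190736, minus strand, GRCm38) encodes MRTF-A. It stood at 13.23, 13.20, 13.12 and 13.02 in the Atad2 shRNA libraries, and at 13.21, 13.13, 13.13 and 13.12 in the control libraries. Replicate 1 of Atad2 shRNA lay above all controls, replicate 4 below all of them, and the other 2 within their range. The log2 fold change was 0.00 ± 0.04 (-0.11 with quantile normalization).

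Mkl2 (chromosome 16, 13256056 to 13417529, plus strand, GRCm38) encodes MRTF-B. It lay at 12.86, 12.83, 12.82 and 12.89 with Atad2 shRNA and at 12.83, 12.81, 12.85 and 12.76 with control shRNA. Its log2 fold change was 0.04 ± 0.03, and -0.07 with quantile normalization. Per kilobase of exon, Mkl1 made up 64.3% ± 1.79 of the 2 MRTF genes' counts with Atad2 shRNA and 65.0% ± 0.65 with control shRNA (SD, n = 4 each), values that overlapped. The log2 of their sum differed by 0.01.

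Tagln (chromosome 9, 45929628 to 45936058, minus strand, GRCm38) encodes transgelin, or SM22α, an actin-bundling protein. It stood at 10.64, 10.61, 10.34 and 10.56 in the Atad2 shRNA libraries, and at 13.35, 13.43, 13.04 and 13.06 in the control libraries. The groups were far apart. The lowest Atad2 shRNA value was that of replicate 3, and control replicates 1 and 2 were the highest. Its log2 fold change was -2.68 ± 0.07, with 1008 to 1751 reads per library after Atad2 shRNA and 9076 to 11118 in controls, and 130 of 14703 genes tested had a change at least as low. Exons of Pcsk7 on the opposite strand, with those of the predicted gene Gm48529, cover at most 67.9% of the exon bases of Tagln. The overlaps of both genes were added, so bases that they share count more than once. Pcsk7 stood at 11.14 ± 0.09 with Atad2 shRNA and 11.00 ± 0.04 with control shRNA (log2 fold change 0.14 ± 0.05, limma adjusted p = 0.021). The library kit keeps strand, per the labels' protocols, but the counting's strand setting is not given, so how reads over these shared bases were counted is not known.

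Tagln2 (chromosome 1, 172500246 to 172507375, plus strand, GRCm38) is the more widely expressed paralog. It had 15.069, 15.001, 15.009 and 14.952 in Atad2 shRNA libraries and 14.879, 14.923, 14.797 and 14.856 in control libraries. The groups were only just apart, with Atad2 shRNA replicate 4 nearest to control replicate 2. The log2 fold change was 0.14 ± 0.03, and 0.03 with quantile normalization or cyclic loess. Among the 3710 genes with a mean above 12 the median was 0.10, with quartiles at -0.04 and 0.25, so Tagln2 lay between the median and the upper quartile of such genes.

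Taking both transgelins per kilobase of exon, Tagln made up 4.65%, 4.76%, 3.95% and 4.74% of them in the Atad2 shRNA libraries, and 26.7%, 27.1%, 23.7% and 23.1% in the control libraries. The summed transgelin level differed by much less than Tagln alone, by -0.21 on the log2 scale (14.02 ± 0.05 with Atad2 shRNA, 14.22 ± 0.09 with control shRNA). Tagln2 made up 95.5% ± 0.38 of it with Atad2 shRNA and 74.9% ± 2.04 with control shRNA.

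The calponins are actin-binding proteins that restrain myosin. Cnn1 (chromosome 9, 22099221 to 22109221, plus strand, GRCm38), the smooth muscle isoform, was weak throughout. It lay at 3.69, 4.46, 4.93 and 3.36 in the Atad2 shRNA libraries, and at 7.13, 7.22, 6.35 and 7.00 in the control libraries. These values rest on 8 to 23 reads per library with Atad2 shRNA and on 87 to 150 with control shRNA. Atad2 shRNA replicate 3 and control replicate 3 lay nearest each other without overlapping. The log2 fold change was -2.82 ± 0.34, with a range from -3.09 to -2.32 over the alternatives.

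Cnn2 (chromosome 10, 79988600 to 79995400, plus strand, GRCm38) is also made in many non-muscle cells. It stood at 13.50, 13.42, 13.30 and 13.42 in the Atad2 shRNA libraries, and at 14.54, 14.56, 14.41 and 14.52 in the control libraries. All Atad2 shRNA libraries lay below all control libraries (-1.09 ± 0.04). Of all genes tested, 8.31% had a change at least as low, and of the 3710 genes with a mean above 12, 0.512% did.

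Cnn3 (chromosome 3, 121426541 to 121458205, plus strand, GRCm38) encodes the acidic calponin. It stood at 13.84, 13.78, 13.78 and 13.86 with Atad2 shRNA, against 14.26, 14.31, 14.25 and 14.26 with control shRNA. Its replicates were the closest of the 3 calponins, and its difference was the smallest (-0.45 ± 0.03). The predicted gene Gm42928 overlaps 538 bases of its exons on the opposite strand.

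The calponins differed in their order. Per kilobase of exon, Cnn2 accounted for 48.3% ± 1.13 of the 3 with Atad2 shRNA and 59.1% ± 0.78 with control shRNA, and Cnn3 for 51.7% ± 1.11 with Atad2 shRNA and 40.6% ± 0.83 with control shRNA (SD, n = 4 each). Cnn3 thus exceeded Cnn2 in each Atad2 shRNA library and Cnn2 exceeded Cnn3 in each control library. Cnn1 stayed at 0.07% ± 0.04 with Atad2 shRNA and 0.28% ± 0.06 with control shRNA. The summed calponin level differed by -0.80 on the log2 scale.

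**Figure D3:**
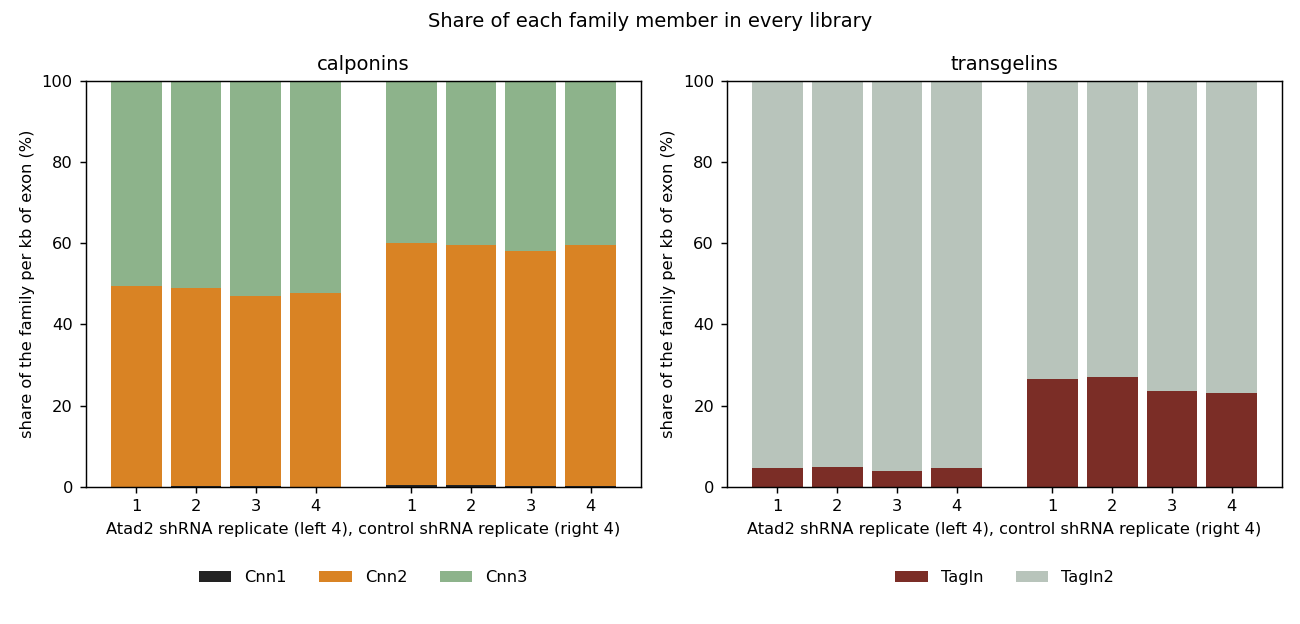
Share of each gene in its family's summed normalized counts per kilobase of exon, in percent, for each Atad2 shRNA library (left 4 bars of a panel) and each control shRNA library (right 4 bars). Cnn3 is the larger calponin share with Atad2 shRNA and Cnn2 with control shRNA, and the Tagln share is under 5% in every Atad2 shRNA library and over 23% in every control library.

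Vcl (chromosome 14, 20929383 to 21033676, plus strand, GRCm38) encodes vinculin, which links actin filaments to integrins and cadherins. It had 14.93, 14.94, 14.86 and 14.94 in Atad2 shRNA libraries and 15.53, 15.55, 15.48 and 15.45 in control libraries. The groups were well apart, and the log2 fold change was -0.58 ± 0.03. Exons of Ap3m1 on the opposite strand cover 25.5% of its exon bases. Ap3m1 fell less, with a log2 fold change of -0.17 ± 0.04 (limma adjusted p = 0.0012).

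Smtn (chromosome 11, 3517522 to 3539292, minus strand, GRCm38) encodes smoothelin, a protein of the contractile filaments of smooth muscle. It stood at 12.74, 12.66, 12.74 and 12.72 with Atad2 shRNA, against 13.12, 13.00, 13.08 and 13.03 with control shRNA. All 4 Atad2 shRNA libraries lay below the controls (-0.34 ± 0.04), the smallest difference among the 6 lower genes. Predicted genes on the opposite strand cover at most 17.2% of its exon bases, their overlaps being added.

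Per kilobase of exon, the order of the 10 genes differed between the groups as well. With Atad2 shRNA it ran Tagln2 (15830 ± 528 normalized counts per kilobase), Cnn3 (4748 ± 142), Cnn2 (4437 ± 252), Vcl (3778 ± 93.2), Srf (2246 ± 98.3), Smtn (1538 ± 38.7), Mkl1 (1483 ± 93.4), Mkl2 (821 ± 17.1), Tagln (750.2 ± 68.3) and Cnn1 (6.55 ± 3.38). Neighbours whose library ranges overlapped there were Cnn3 with Cnn2 and Smtn with Mkl1. With control shRNA Tagln2 (14327 ± 519) was again first and Cnn1 (45.2 ± 10.9) last, while Cnn2 (9467 ± 422) had rank 2, Tagln (4831 ± 672) rank 5 and Srf (1708 ± 62.4) rank 7. Only Vcl (5664 ± 181) and Tagln overlapped as neighbours in the controls. Tagln therefore stood below Srf and both MRTF genes in the Atad2 shRNA libraries and above all 3 in the control libraries. With Atad2 shRNA its highest library (804.4) was only just under the lowest of Mkl2 (805.9). The exon length of Tagln includes the bases shared with opposite-strand genes. Its level per kilobase, its rank and its share of the transgelins thus depend on how reads there were counted. Exon lengths came from GENCODE M21, which may not be the authors' annotation.

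**Figure D4:**
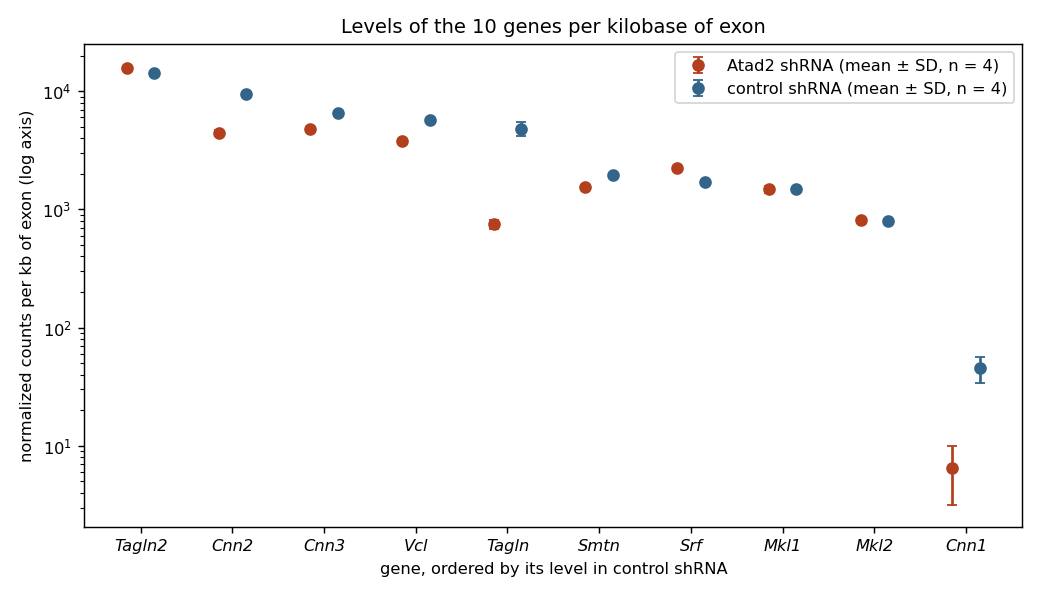
Level of the 10 genes in normalized counts per kilobase of exon on a log axis, ordered by the control shRNA level; points are means and bars SD of 4 libraries, Atad2 shRNA left of control shRNA for each gene. Tagln has rank 9 with Atad2 shRNA and rank 5 with control shRNA, and Srf has rank 5 with Atad2 shRNA and rank 7 with control shRNA.

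The other genes of the pathway were taken as 4 lists chosen for what the genes do, with earlier results of the series known, and were tested over the whole table. Of all genes tested, 30.8% were higher and 29.6% lower in the Atad2 shRNA libraries, 60.4% in all (limma, adjusted p under 0.05). By the same call, 2 of the 10 genes above were higher, 6 were lower and 2 did not pass, which is again a description.

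Contractile and cytoskeletal SRF targets were mostly lower in the Atad2 shRNA libraries. All 37 were tested; 26 fell, 4 rose and 7 did not pass, with a median log2 fold change of -0.55, beside -0.01 over all genes. At least a 2-fold decrease was seen in 11 of them and a 2-fold increase in 0. The share of 2-fold changes over all genes was not counted. At or below the Cnn2 change of -1.09 lay 8.31% of all genes tested, and 0.512% of those with a mean above 12. Without each library in turn, 25 or 26 fell and 3 or 4 rose.

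Acta2, the smooth muscle α-actin gene, stood at 15.18, 15.07, 14.95 and 15.10 in the Atad2 shRNA libraries, and at 17.35, 17.40, 17.23 and 17.28 in the control libraries. It was 4.73-fold lower, without overlap (log2 fold change -2.24 ± 0.04, limma adjusted p = 1.4e-19). Ctgf, the older symbol of the matricellular gene Ccn2, which is also a known target of YAP, stood at 7.71 ± 0.13 with Atad2 shRNA and 10.42 ± 0.22 with control shRNA (-2.70 ± 0.11, limma adjusted p = 8.7e-15). Csrp1, a LIM protein of actin bundles, changed by -1.15 ± 0.04 and Synpo2, an actin-bundling partner of filamin, by -1.58 ± 0.07. Against them, the intermediate filament gene Des rose by 0.38 ± 0.03 and the fibronectin receptor gene Itga5 by 0.38 ± 0.04.

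Among genes singled out after their values were seen, the smooth muscle γ-actin gene Actg2 (-1.91 ± 0.09), the leiomodin gene Lmod1 (-2.87 ± 0.25) and the regulatory light chain gene Myl9 (-2.22 ± 0.12) also fell. Lmod1 rests on 23 to 50 reads per Atad2 shRNA library and 212 to 309 per control library. Of the cytoplasmic actins, Actb fell by a smaller amount, with a log2 fold change of -0.25 ± 0.04 (limma adjusted p = 2.5e-05), and Actg1 did not pass (0.03 ± 0.03, limma adjusted p = 0.44). Actins share long stretches of sequence, so reads may be split among them. The skeletal and cardiac actin genes Acta1 (-0.09 ± 0.12) and Actc1 (0.00 ± 0.49) did not pass either, and Actc1 had at most 29 reads in any library. Myh11, the myosin heavy chain that defines smooth muscle, had at most 14 reads per Atad2 shRNA library and 20 per control library and did not pass. The 6 smooth muscle markers, none among the 10 genes but 5 of them in the contractile list, summed to 527 to 608 RPM with Atad2 shRNA and 2653 to 2974 RPM with control shRNA, and 5 of the 6 fell. The sum is mostly Acta2, with 166013 to 187127 reads per control library, beside at most 7716 for Actg2, the next highest.

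**Figure D5:**
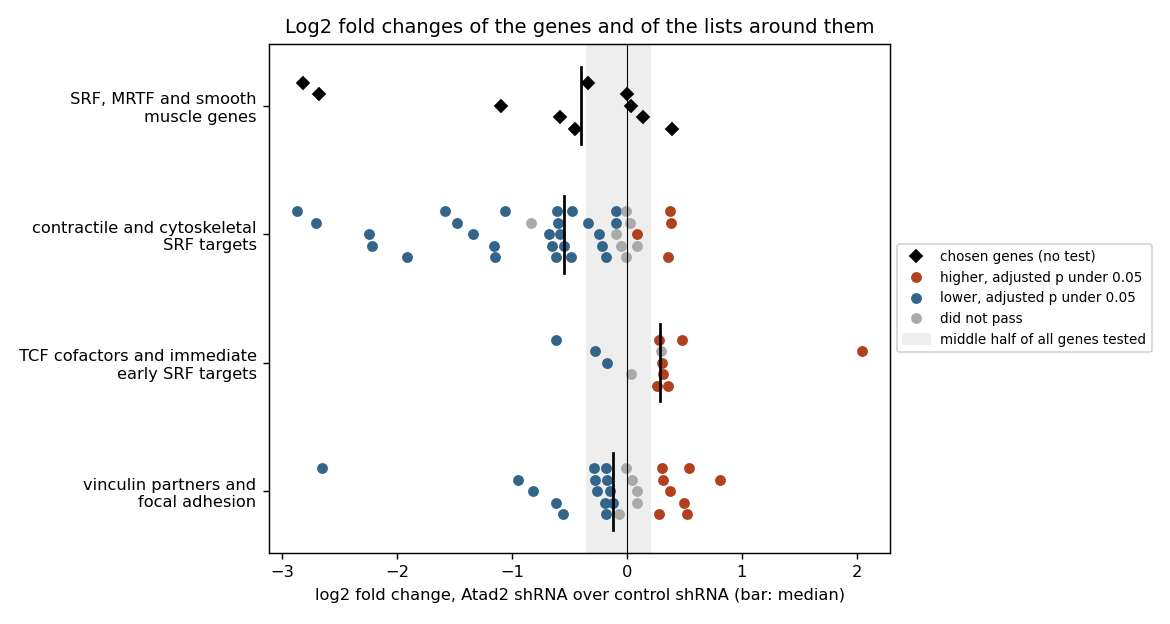
Log2 fold change of Atad2 shRNA over control shRNA for the 10 genes (diamonds, not tested) and for the tested genes of the 3 larger lists (circles coloured by the limma call); vertical bars are medians and the grey band spans the quartiles of all genes tested. The contractile list has its median at -0.55 and the immediate early list at 0.29.

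Immediate early SRF targets and the ternary complex factors had another balance. Among its 12 genes there were 7 that rose, 3 that fell and 2 that did not pass, with a median log2 fold change of 0.29. Egr3, a zinc finger factor gene, stood at 10.89, 10.78, 10.63 and 10.61 in the Atad2 shRNA libraries, and at 8.73, 8.60, 8.48 and 8.92 in the control libraries. It was 4.14-fold higher (2.05 ± 0.09, limma adjusted p = 5.3e-14), the single gene of this list to change by 2-fold or more. Junb (0.48 ± 0.05), an AP-1 subunit, Mcl1 (0.28 ± 0.03), a survival factor of the BCL2 family, and Elk3 (0.31 ± 0.04), a ternary complex factor, also rose. Elk4, another ternary complex factor, changed by -0.17 ± 0.03. With quantile normalization and with cyclic loess, Mcl1 changed by 0.18 under both, and Elk4 by -0.28 and -0.27. Egr1 changed by -0.28 ± 0.07 with overlapping values, a call lost without the variance trend (limma adjusted p = 0.054). Without control shRNA replicate 4, which had the highest Egr1 value (13.23), the change was -0.18. Singled out after its value was seen, Fos had the lowest log2 fold change of this list, -0.62 ± 0.18 (limma adjusted p = 0.0059). Its groups were only just apart, at 8.07, 8.10, 7.66 and 7.59 with Atad2 shRNA and 8.39, 8.21, 8.14 and 9.15 with control shRNA. Control shRNA replicate 4 was the highest control for Fos as for Egr1. The same held for Junb, Egr2, Egr3, Ier2 and Nr4a1, but not for Elk1, Elk3, Elk4, Fosb and Mcl1. Without the variance trend Elk4 alone of the 3 genes that fell was called lower.

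Of 27 vinculin partners and focal adhesion genes, 14 fell, 8 rose and 5 did not pass (median -0.12). The parvins, which link integrins to actin, went opposite ways. Parvb stood at 14.23, 14.20, 14.11 and 14.00 in the Atad2 shRNA libraries and at 13.35, 13.26, 13.29 and 13.37 in the control libraries, 1.76-fold higher (0.82 ± 0.04, limma adjusted p = 8.6e-13). Parva, its paralog, was 1.47-fold lower (-0.56 ± 0.03, limma adjusted p = 3.3e-12). The vinculin-binding adaptor gene Sorbs3 (vinexin) changed by -0.82 ± 0.04, Tns2 (tensin) by -0.62 ± 0.04 and the LIM adaptor gene Lims2 by -0.94 ± 0.09, while Ctnnb1 (β-catenin) rose by 0.52 ± 0.03. Singled out after its value was seen, the adaptor gene Sorbs2 had the lowest log2 fold change of this list, -2.65 ± 0.45 (limma adjusted p = 3.4e-05), on 4 to 43 reads per Atad2 shRNA library and 95 to 162 per control library.

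Close relatives of the 10 genes were weak. Myocd, the smooth and cardiac muscle member of the myocardin family, lay at 3.88, 4.98, 3.50 and 2.76 in the Atad2 shRNA libraries and at 5.41, 5.65, 5.22 and 5.44 in the control libraries. These are 5 to 32 reads per Atad2 shRNA library and 39 to 50 per control library (log2 fold change -1.65 ± 0.43, limma adjusted p = 0.0022). Its groups did not overlap, and Atad2 shRNA replicate 2 was nearest to the controls. Mamstr, a coactivator of MEF2, stood at 2.98 ± 1.36 with Atad2 shRNA and 4.20 ± 0.60 with control shRNA and did not pass (limma adjusted p = 0.094). Without Atad2 shRNA replicate 4 it did (log2 fold change -1.71, limma adjusted p = 0.022), and without replicate 3 the change was -0.62. Tagln3 stood at 4.86 ± 0.41 with Atad2 shRNA and 5.34 ± 0.44 with control shRNA and did not pass. Smtnl1 and Smtnl2 were too weak to be tested, with at most 9 reads in any library.

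CArG boxes were counted in the same way in the lists. Of 30 contractile genes with a promoter window, 8 had an exact box (Acta1, Actc1, Actg1, Fhl1, Fhl2, Filip1l, Myl6 and Myl9), beside 1.69% of all tested genes with a window. Of these 8 genes, 5 fell and 0 rose, beside 70.3% that fell and 10.8% that rose in the whole contractile list. An exact box was present in 1 of 9 immediate early genes with a window (Egr2, which rose), in 2 of 19 vinculin partners (Fermt2 and Rsu1, which fell) and in 0 of 2 close relatives. Among 186 tested genes with a box in the whole table, 62 rose and 54 fell, which is 33.3% and 29.0%, beside 32.0% and 29.6% of all 11013 tested genes with a window. Their median log2 fold change was 0.02. The shares of genes with a box lay near those of all genes with a window.

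The genes with the highest Pearson r to Srf over the 8 libraries were St13, Ppme1, Kat2a, Prmt5 and Nfx1 (r of 0.995 to 0.997), with log2 fold changes of 0.27 to 0.44. For Tagln they were 1810055G02Rik, Ildr2, Masp1, Rraga and Ctgf (r of 0.998 to 1.000), with log2 fold changes from -2.70 to -0.47. These values mostly restate the gap between the groups: of 10479 tested genes with a mean of at least 8, 1345 had an r of at least 0.95 with Srf and 928 with Tagln.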

How the data were processed

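Grouping followed the titles in the labels. The authors deposited 1 table on a log2 scale, log2(x + 1) with x a size-factor-scaled read count, a form inferred from the numbers themselves. It has 3 decimals, so high recovered reads are approximate. Build mm10 and the tools bcl2fastq 2.20, SAMtools 1.1, HTSeq 0.13.5 and DESeq2 are named, per the submitters' processing notes; aligner, annotation and strand setting were not given in the sources used. Back-converted low values, up to 30 reads, were whole multiples of 1 step in 100% of cases (tolerance 0.1 reads), which gave depths and read ranges in reads, Mreads and RPM. The floor of 3 reads is 0.0411 to 0.0596 RPM; it covers counting error only. A fold on the log2(x + 1) scale understates changes of weak genes.

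Genes with a mean above 3 entered a linear model per gene (limma 3.58.1, R 4.3.3, moderated variances with an intensity trend), with two-sided tests and Benjamini-Hochberg adjustment over all 14703 genes tested. The procedure was run on simulated data in which few genes changed. Here 60.4% of the genes tested were called, a setting that the simulation does not cover. The 10 genes and the lists were chosen with earlier results of these data known. Named were the 10 genes, Atad2, the close relatives, the 5 genes most like Srf and the 5 most like Tagln, and per list the called genes of lowest adjusted p with a mean of at least 5: up to 4 of the commoner direction, up to 2 of the rarer. Another list of genes is not reported here. Further named genes are said to be singled out after their values were seen. Alternatives were no filter or a mean above 5, an offset of 8, median centring, quantile normalization, cyclic loess, no variance trend, limma-voom on recovered reads, 1 mismatch in the motif, the replicate block and leaving out each library. Exon lengths and overlaps came from GENCODE M21 and promoters from RefSeq, both GRCm38. Python 3.11.15, pandas 2.3.3, SciPy 1.17.1 and matplotlib 3.10.9 were used.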

Additional observations from a re-analysis of the deposited data

Results flagged for a closer look

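Of 64 groups of 4 libraries examined for single stray values (32 genes in 2 groups), 2 held a library far from its group, and chance alone flags about 1 in 20 groups. Mkl1 stood at 13.21 in control shRNA replicate 1 (13.205 as deposited), against 13.12 to 13.13 in the other controls. Ctnnb1 stood at 15.38 in control shRNA replicate 4, against 15.30 to 15.31 in the other controls.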

How the results depend on the processing

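Of the counts of called genes, 3 moved by more than 1.5 times under an alternative. Without the variance trend 1 immediate early gene fell, in place of 3. Of the close relatives, 0 fell with a mean above 5, since Myocd lies below that level, and 1 to 2 fell when single libraries were left out (2 without Atad2 shRNA replicate 4). Tagln3 reversed, to 0.0493 with quantile normalization and 0.0209 with cyclic loess; the cause was not tested. These 2 settings gave lower values for strongly expressed genes: Srf 0.29 and 0.30, Mkl1 -0.11 and -0.11, Mkl2 -0.07 and -0.06, Tagln2 0.03 and 0.03, Cnn2 -1.20 and -1.21, Cnn3 -0.57 and -0.57, Vcl -0.70 and -0.70, and Smtn -0.44 and -0.44. Mkl1 and Mkl2 had no settled direction; no setting turned that of the other 6, of Tagln (-2.76 to -2.61) or of Cnn1 (-3.09 to -2.32).

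Over all genes tested, libraries with the same number did not deviate together (Pearson r from -0.02 to 0.03). With the replicate block the SE of Tagln was 0.046 in place of 0.075, and that of Cnn2 0.029 in place of 0.040. The SEs of Srf, Mkl2 and Cnn1 were slightly larger with it. Whether libraries with the same number share a culture or day is therefore not known. With the replicate block 4562 genes were higher and 4379 lower in place of 4528 and 4352, and the contractile list had 26 lower and 4 higher. Depth limits Cnn1, Myocd, Mamstr and Tagln3, which rest on at most 150 reads per library.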
